A study of Mus musculus with 2 samples.

Results

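Mir183, Mir96 and Mir182 are neighbouring microRNA (miRNA) genes that are best known from sensory organs. They are described here in small RNA from the embryonic mouse midbrain, where 3 of 1973 listed miRNA genes carry these symbols. The members were chosen by gene symbol and position, in view of earlier results of these data. The material was midbrain of B6NCrl embryos of both sexes at embryonic day 15.5, with no treatment and no genetic change named. Replicate 1 was a pool of 78 embryos and replicate 2 a pool of 62, and together they form the only group. RNA was selected for a size under 30 bases, and a library was sequenced from each pool.

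miRNAs are short RNAs that guide Argonaute proteins to messenger RNAs, mainly by pairing of bases 2 to 8, the seed, and so lower the output of their targets. The genes of this cluster are transcribed as a shared primary transcript, from which Drosha and Dicer cut separate hairpins and mature strands. The cluster is strongly expressed in photoreceptors, hair cells of the inner ear, olfactory and dorsal root ganglion sensory neurons and the pineal gland. Changes in the seed of Mir96 cause hearing loss in mice and people, and loss of the whole cluster disturbs photoreceptors and hair cells. The midbrain is not a sensory organ, though its roof receives visual and auditory input and one of its nuclei holds the cell bodies of sensory neurons of the jaw muscles.

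The 5p strands of the members, which are the dominant products in sensory tissue, are shown first because their seeds set their targets. Capitals mark the seed. All sequences are from RefSeq on GRCm38.p6 (the mm10 assembly), minus strand, 5′ to 3′, and all 3 genes were matched by symbol.
miR-183-5p, chr6:30169711-30169732: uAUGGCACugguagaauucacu
miR-96-5p, chr6:30169506-30169528: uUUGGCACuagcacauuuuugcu
miR-182-5p, chr6:30165962-30165986: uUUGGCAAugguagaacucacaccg
No seed is the same in any pair of members. Counted from 1 at the 5′ end, miR-96-5p differs from miR-183-5p in the seed by A2U alone, and miR-182-5p differs from miR-96-5p by C8A alone. Between miR-183-5p and miR-182-5p both differences, A2U and C8A, are present. The strands therefore share the letters UGGCA at positions 3 to 7, which 5 of 1679 mature miRNAs of the RefSeq table (0.298%) hold there, read on the mature strand only. The other 2 are miR-1271-5p and miR-7022-5p. Over their whole length, without gaps, miR-183-5p and miR-182-5p are the more alike, with 18 of 22 bases identical (81.8%), against 13 of 22 (59.1%) for miR-183-5p and miR-96-5p and 12 of 23 (52.2%) for miR-96-5p and miR-182-5p.

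The counts do not separate the arms of a hairpin, so each value below is the sum over all reads inside the whole hairpin. The hairpins are printed for that reason, with both mature strands in capitals, 5p first.
Mir183, chr6:30169668-30169737: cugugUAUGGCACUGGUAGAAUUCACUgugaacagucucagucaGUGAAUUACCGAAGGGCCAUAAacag
Mir96, chr6:30169446-30169551: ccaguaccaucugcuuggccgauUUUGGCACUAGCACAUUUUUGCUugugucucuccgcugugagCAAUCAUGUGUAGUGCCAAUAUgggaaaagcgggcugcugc
Mir182, chr6:30165918-30165992: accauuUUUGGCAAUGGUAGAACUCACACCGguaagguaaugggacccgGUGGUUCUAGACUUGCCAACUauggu
The hairpins are 70, 106 and 75 bases long. None shares a stretch of 18 bases with any of 2201 other miRNA transcripts of GENCODE M21, and the longest stretch shared with one was 11 bases for each member. Reads with several mapping places are given to no gene in these tables, and they made up 37.7% and 35.8% of all reads in replicates 1 and 2. Copies of the members elsewhere in the genome were not searched for.

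On the minus strand of chromosome 6 the order of transcription is Mir183, Mir96, Mir182. Mir183 and Mir96 are 116 bases apart, while Mir182 lies a further 3453 bases downstream, and the cluster spans 3820 bases. No other GENCODE M21 gene overlaps that span, so the members are intergenic by this annotation. On one side lies the protein-coding gene Nrf1, 12.5 kb away. On the other lie Rncr4, a long noncoding RNA of the opposite strand described in retina, 3.16 kb from Mir183, and Ube2h, which encodes a ubiquitin-conjugating enzyme, 41.6 kb away.

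Replicate 1 had 3429704 sense reads in miRNA genes and replicate 2 had 5752476. Levels are given in CPM, sense reads scaled to a library total of 1e6, so that a read counts 0.292 CPM in the first library and 0.174 in the other. A chi-square test over the 469 genes with at least 10 reads gave 58.1 per degree of freedom, far above counting noise, which sets the files apart from a library deposited again. The neuronal miRNA Mir137, at 10800 and 11585 CPM in replicates 1 and 2, and Mir153, at 3224 and 3495 CPM, were abundant in this brain tissue. Counts were low for the neuronal miRNA genes Mir124a-2, at 4.08 and 2.43 CPM, and Mir124a-3, at 0.583 and 0.522 CPM. These are numbered copies, and reads that fit several places are given to no gene. Their counts therefore do not measure how abundant that miRNA was. All 3 members reached a mean of 1 CPM, as did 474 of the 1973 genes.

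All members of the cluster were counted in both pools, with 793 to 3613 reads, and took places from 94 to 178 among the 1973 genes. Mir182 had 3112 reads in replicate 1 and 3613 in replicate 2, or 907 CPM (95% exact interval 876 to 940) and 628 CPM (608 to 649). Mir183 had 2461 and 3445 reads, or 718 CPM (689 to 746) and 599 CPM (579 to 619). Mir96 had 793 and 1053 reads, or 231 CPM (215 to 248) and 183.1 CPM (172 to 194). For every member the level was higher in replicate 1, and the intervals of the libraries did not overlap. The share of all genes with intervals apart was not computed. Differences beyond counting error were common. Of genes that averaged 100 CPM or more, the exact binomial test below called 29.1% higher in replicate 1 and 28.1% higher in replicate 2. Intervals cover counting error only, since reads made by PCR are not independent molecules.

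**Figure D1:**
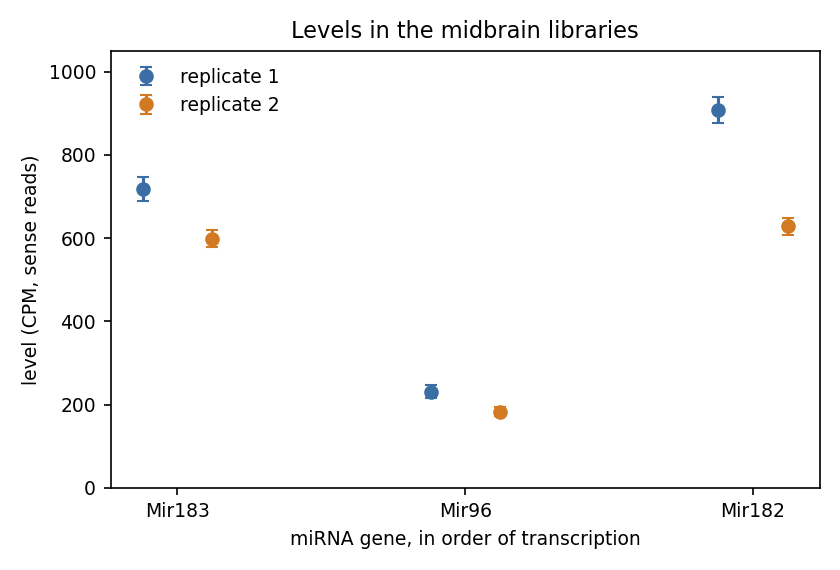
Levels of Mir183, Mir96 and Mir182 (x axis) in CPM (y axis) in the pools of 78 (replicate 1) and 62 embryos (replicate 2), with 95% exact counting intervals as bars. Each member is higher in replicate 1, Mir96 is the lowest in both libraries, and Mir182 shows the widest gap, 907 against 628 CPM.

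As means over the libraries, Mir182 had 768 ± 197 CPM (SD, n = 2), Mir183 658 ± 83.9 CPM and Mir96 207 ± 34.1 CPM. Mir96 was below both others by far more than this spread. Mir182 and Mir183 were not told apart by it, since their means were 1.17-fold apart and their ranges overlapped. Mir182 took rank 94 in replicate 1 and 110 in replicate 2, Mir183 rank 105 and 113, and Mir96 rank 164 and 178. Mir182 and Mir183, the members closest in count, lie on either side of Mir96 in the genome.

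The genes nearest in mean level show what company the members keep. Above Mir182 were Mir340, at 740 and 804 CPM, and Mir10a of a Hox cluster, at 649 and 917 CPM. Below it were Mir325, at 782 and 712 CPM, and Mir181a-2, at 1015 and 461 CPM. Mir183 lay between Mir7-1 (642 and 700 CPM) and Mir676 (665 and 695 CPM) above and Mir341 (634 and 676 CPM) and Mir320 (632 and 616 CPM) below. Those means lay from 624 to 680 CPM, all within the SD of Mir183. Mir96 lay between Mir302b (188 and 228 CPM) and Mir669l (224 and 196 CPM) above and Mir505 (211 and 182 CPM) and Mir129-2 (189.5 and 199 CPM) below.

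Together the members held 6366 sense reads in replicate 1 and 8111 in replicate 2. That is 0.186% of the sense reads in miRNA genes in replicate 1 (exact limits 0.181 and 0.190) and 0.141% in replicate 2 (0.138 and 0.144). It equals 1 such read in 539 and 1 in 709. The sum was 1633 ± 315 CPM (SD, n = 2). In bulk tissue, fewer cells that make these miRNAs and less RNA in each cannot be told apart. Reads on the opposite strand of the hairpins were rare, with 5 in replicate 1 and 9 in replicate 2. They were 0.0785% (exact interval 0.0255 to 0.183) and 0.111% (0.0507 to 0.210) of the reads at these genes, against 2.23% and 2.36% over all miRNA genes. That pooled share was unevenly spread over genes. Mir30a, Mir26b and Mir149 had 0 opposite reads in both libraries, while Gm25641 had 74 and 175 beside 0 sense reads. A low share of opposite reads was thus not particular to the cluster. Mir96 had no opposite read in either library.

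Within a library the ratio of one member to another needs no scaling, so it can be compared between the pools directly. Of the cluster's reads Mir182 made up 48.9% in replicate 1 (95% exact limits 47.6 and 50.1) and 44.5% in replicate 2 (43.5 and 45.6). Mir183 made up 38.7% (37.5 to 39.9) and 42.5% (41.4 to 43.6). Mir96 made up 12.5% (11.7 to 13.3) and 12.98% (12.3 to 13.7). The share of Mir182 was lower by 4.34 percentage points in replicate 2 and that of Mir183 higher by 3.81 points, with intervals that did not overlap, whereas the intervals of Mir96 overlapped.

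**Figure D2:**
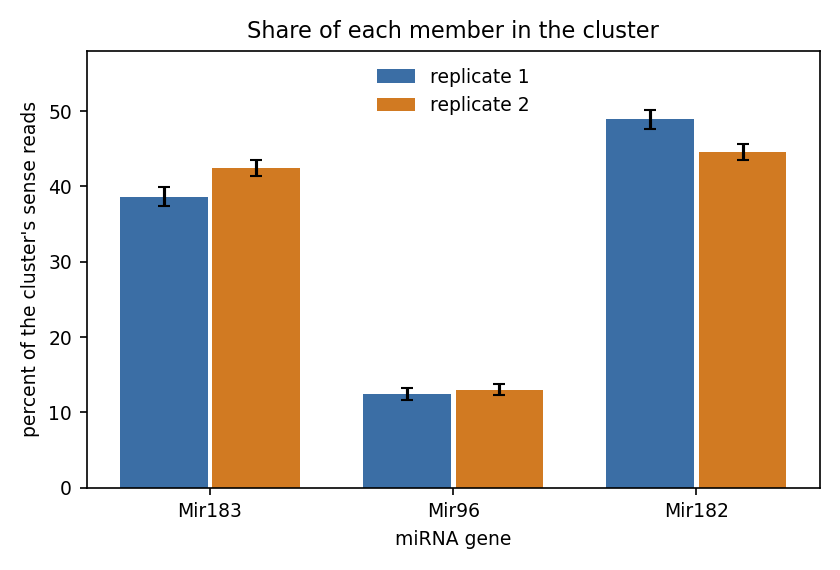
Share of each member (x axis) in the sense reads of the cluster, in percent (y axis), in replicate 1 (blue) and replicate 2 (orange), with 95% exact counting intervals. Mir182 has 48.9% in replicate 1 and 44.5% in replicate 2, Mir183 38.7% and 42.5%, and Mir96 12.5% and 12.98%.

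The ratio of Mir182 to Mir183 was 1.26 in replicate 1 (exact limits 1.20 and 1.33) and 1.05 in replicate 2 (1.001 and 1.10). Divided by the lengths of the hairpins it was 1.18 and 0.979, so which of these members leads in replicate 2 depends on that division. Reads of this size span about a mature strand, and counts are otherwise not divided by length here. Mir182 exceeded Mir96 3.92-fold (3.63 to 4.25) and 3.43-fold (3.20 to 3.68), and Mir183 exceeded Mir96 3.10-fold (2.86 to 3.37) and 3.27-fold (3.05 to 3.51). Mir96 was the lowest member in every one of these comparisons, with and without division by length.

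From replicate 1 to replicate 2, the ratio of Mir182 to Mir183 changed by a factor of 0.829 (95% exact conditional interval 0.772 to 0.891). The ratio of Mir182 to Mir96 changed by a factor of 0.874 (0.787 to 0.971). That of Mir183 to Mir96, the genes 116 bases apart, changed by 1.05 (0.947 to 1.17), an interval that includes no change. The intervals of both pairs with Mir182 did not include 1, and that of Mir183 and Mir96 did. Both of the former pairs share the counts of Mir182, so they are not independent. The differences between these factors were not tested, nor was any relation to the distance between the genes.

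These factors were set beside the same value for the 180 other pairs of miRNA genes on the same strand that lie within 10 kb of each other and each average 100 CPM or more. Such pairs share genes, and 135 of them lie in the large cluster of chromosome 12, so they are a description and not independent points. Their median absolute log2 shift was 0.13, a factor of 1.09, and in 91 of 180 (50.6%) the large-sample 95% counting interval did not include 1. The shift of Mir182 against Mir183 (0.27 on the log2 scale) was larger than in 158 of the 180 pairs, that of Mir182 against Mir96 (0.19) larger than in 128, and that of Mir183 against Mir96 (0.076) larger than in 56. A change beyond counting error is therefore common among neighbours, and that of Mir182 against Mir183 lay in the upper part of their range.

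**Figure D3:**
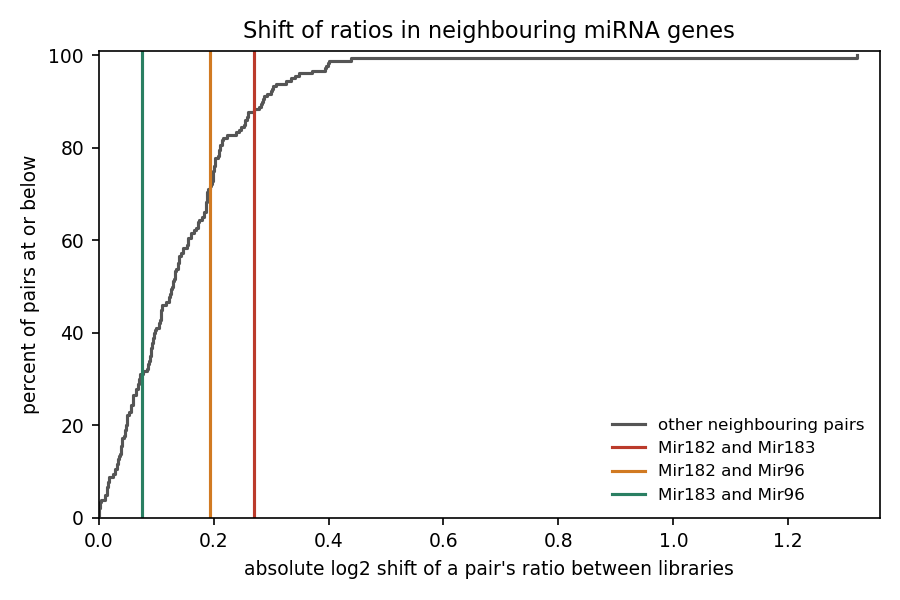
Cumulative percent (y axis) of 180 other neighbouring miRNA gene pairs by the absolute log2 shift of their ratio between the libraries (x axis), with vertical lines at the 3 pairs of the cluster. The lines lie at 0.076 for Mir183 and Mir96, 0.19 for Mir182 and Mir96 and 0.27 for Mir182 and Mir183, while the median of the other pairs is 0.13.

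The levels themselves were compared between the pools as log2 ratios of replicate 2 to replicate 1, after TMM scaling, with a pseudocount of 1 CPM. Mir182 had a ratio of -0.56 (95% counting interval -0.63 to -0.49), 1.48-fold higher in replicate 1. Mir96 had -0.37 (-0.50 to -0.24), 1.29-fold, and Mir183 -0.29 (-0.37 to -0.22), 1.23-fold. In a two-sided conditional exact binomial test with Benjamini-Hochberg adjustment over 717 genes, the adjusted p was 4.33e-55 for Mir182, 6.03e-07 for Mir96 and 2.04e-13 for Mir183. All 3 members were thus higher in replicate 1, a call made for 10.04% of all genes tested and for 29.1% of the 203 genes that averaged 100 CPM or more. This test compares these libraries against counting error, not conditions, and each pool was sequenced as 1 library.

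When spread between libraries was allowed for, none of the calls remained. With a coefficient of variation of 10%, edgeR's exact test gave an adjusted p of 0.436 for Mir182, 1 for Mir96 and 1 for Mir183, and called 0.418% of genes. The unadjusted p from that exact test was 0.00669 for Mir182, 0.0867 for Mir96 and 0.158 for Mir183. How many of all genes fell under 0.05 without adjustment was not counted. edgeR's own estimate was a coefficient of 10.1%, made from the same libraries, so that their differences are part of the spread they are tested against. The calls of the exact binomial test thus rest on counting error as the only source of spread.

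**Figure D4:**
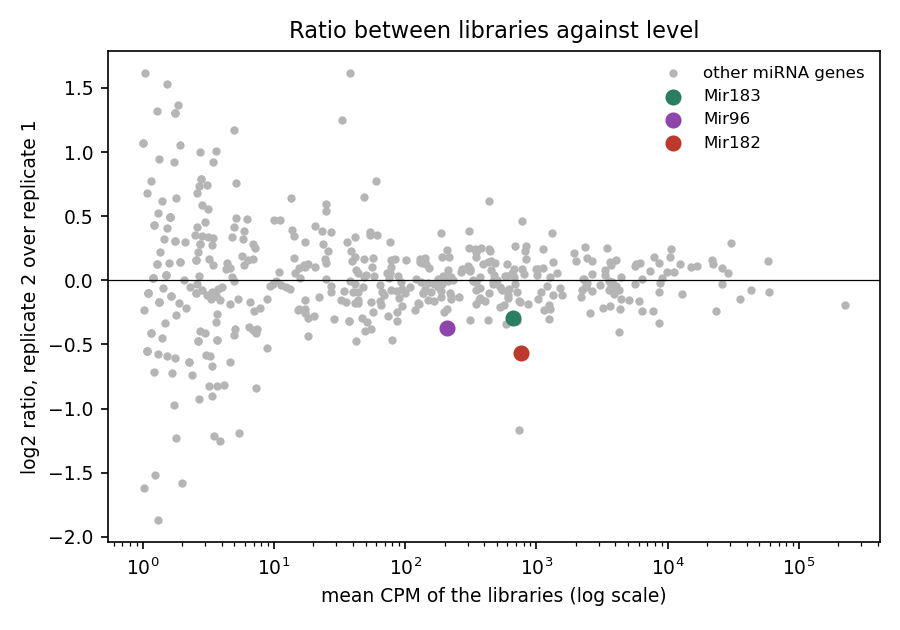
log2 ratio of replicate 2 to replicate 1 (y axis) against mean CPM (x axis, log scale) for the 474 miRNA genes that averaged 1 CPM or more. The 3 members lie below 0, with Mir182 at -0.56 near the lower edge of genes of its level, where Mir181a-2 lies lower at -1.17.

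The cluster as a sum had a log2 ratio of -0.43 (counting interval -0.48 to -0.38), or 1.35-fold higher in replicate 1. Over the 203 genes that averaged 100 CPM or more, the median log2 ratio was -0.0044 and the median absolute value 0.12. Among these genes, members included, 1 had a lower ratio than Mir182, 3 a lower one than Mir96 and 10 a lower one than Mir183. The 1 below Mir182 was Mir181a-2 (-1.17), a numbered copy of a miRNA with another gene. In absolute size, 2 genes exceeded Mir182, 8 exceeded Mir96 and 15 exceeded Mir183.

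The genes of at least 100 CPM whose ratio came nearest to that of the summed cluster, over these 2 libraries only, were Mir23a (-0.40), Mir27b (-0.34), Mir23b (-0.34), Mir187 (-0.32) and Mir210 (-0.31). Mir23a had 4760 and 3690 CPM, Mir23b 9554 and 7743, Mir27b 654 and 528, Mir187 779 and 640 and Mir210 342 and 283. All 5 were higher in replicate 1, as the measure of likeness requires. Mir23b and Mir27b are neighbours on chromosome 13, and none of the 5 lies on chromosome 6.

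The members' common direction was set beside that of other clusters. There were 10 runs of at least 3 genes of 100 CPM or more that shared a strand and lay no more than 10 kb from the next. The Mir183, Mir96 and Mir182 run had the lowest median log2 ratio, -0.37, while the 9 others had medians from -0.17 to 0.25. All genes had a ratio below 0 in 2 runs, this one and that from Mir467e to Mir669o, and above 0 in 2 others. One of those was Mir302b to Mir302d, whose 3 genes of that level were all higher in replicate 2. Mir302c, which lies inside that run but below the level asked for, had 37.3 and 33.9 CPM (log2 ratio -0.17). The highest member exceeded the lowest 3.71-fold in the cluster, and 2 of the 9 other runs had a smaller spread of levels.

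**Figure D5:**
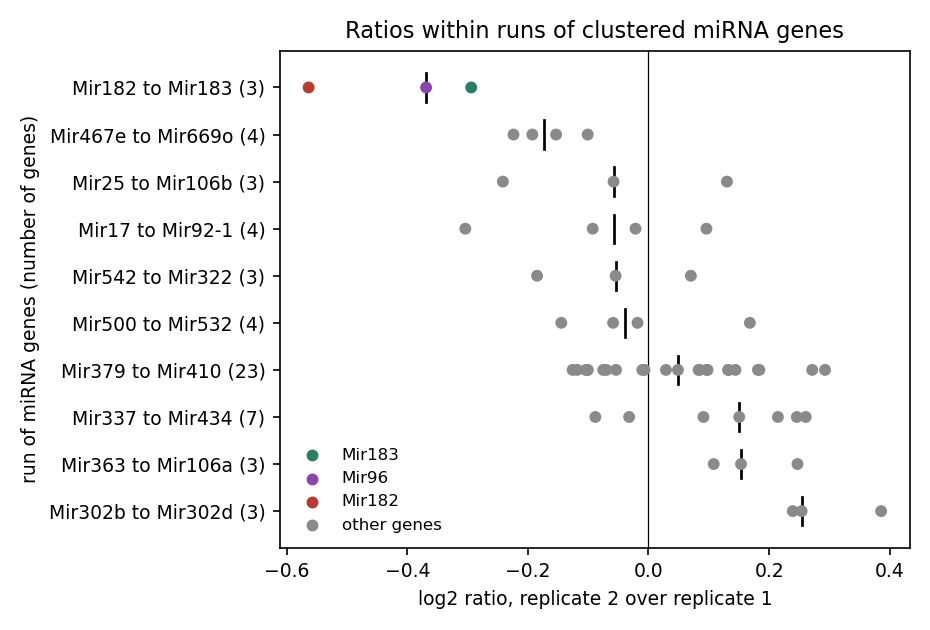
log2 ratio of replicate 2 to replicate 1 (x axis) for each gene in the 10 runs of clustered miRNA genes (y axis, number of genes in brackets), ordered by their median, drawn as a black bar. Mir183, Mir96 and Mir182 (coloured) form the run with the lowest median, -0.37, and the run of Mir302b the highest, 0.25.

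Other miRNA genes within 1 Mb of the cluster had ratios nearer to 0 where they were well counted. Mir335, in the imprinted gene Mest 572 kb away, had 54127 and 61503 CPM and was higher in replicate 2 (log2 ratio 0.15, adjusted p 4.39e-292 by the exact binomial test). Mir29a, a miRNA that rises as the brain matures, had 164 and 165 CPM at 893 kb (-0.027, adjusted p 0.983). Mir29b-1 had 10 and 9 reads, Gm26220 1 and 4, and Gm23049 none in either library, at or below 2.92 CPM in each case. A count of 0 allows up to 3 reads, equal to 0.875 CPM in the first library and 0.522 CPM in the other.

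A seed shared with a member would let another miRNA pair with the same targets. For the 5p strands, a single mature miRNA of the RefSeq table had the seed of a member, which was miR-1271-5p with that of miR-96-5p. Its sequence is printed to show the match, with the seed in capitals.
miR-1271-5p, chr13:54578152-54578173, plus strand: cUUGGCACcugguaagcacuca
Its gene, listed as Gm24195, had 0 reads in both libraries, so it was below 0.875 and 0.522 CPM, while Mir96 had 231 and 183.1 CPM. Mir7022, whose 5p strand has the letters UGGCA at positions 3 to 7 but another seed, had 0 and 1 read. On the 3p side, miR-96-3p shares its seed with miR-3475-5p. Mir3475 had 95.3 and 109 CPM (log2 ratio 0.16, adjusted p 0.323 by the exact binomial test). The counts do not tell which arm those reads came from.

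miRNAs known from other sensory tissue were present at various levels. Mir204, of pigment epithelium, lens and choroid plexus, had 1129 and 1497 CPM and was higher in replicate 2 (log2 ratio 0.37), opposite in direction to the cluster. Mir9-3, a copy of a miRNA of neural progenitors and retina, had 455 and 512 CPM (0.13). Mir31 had 67.9 and 65.4 CPM (-0.088) and Mir211, in the same family as Mir204, 16.6 and 14.4 CPM (-0.22). In the exact binomial test, 2 of the 9 analysed genes of that list of other sensory organ miRNAs were higher in replicate 2 and 0 in replicate 1. Over all genes tested 9.76% were called higher in replicate 2, and 28.1% of those that averaged 100 CPM or more. The median log2 ratio over the 8 that averaged 1 CPM or more was -0.17. Over all 717 genes tested, without that filter, the median was 0.036. The 8 include genes with few reads, such as Mir124a-2 (14 and 14 reads, log2 ratio -0.59) and Mir9-2 (6 and 9 reads, -0.12). The sums, most of which are Mir204, had a log2 ratio of 0.28. The median and the ratio of sums therefore differ in sign.

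Markers of tissues that could lie beside the midbrain or reach it were also counted, and their part in the ratios of the cluster was not tested. The 5 Hox-linked genes, which mark the nervous system caudal to the midbrain, summed to 1008 CPM in replicate 1 and 1481 in replicate 2, with 3 of 5 higher in replicate 2. Mir10a had a log2 ratio of 0.46 and Mir10b of 0.62, while Mir196a-1 was at 0 in both libraries and so was not tested. Mir196a-1 is a numbered copy, and reads that fit several places are given to no gene, so its 0 is no measure of absence. The 7 epithelial genes, among them Mir203 at 568 and 635 CPM and Mir205 at 17.8 and 57.9 CPM, summed to 657 and 803 CPM, with 3 of 7 higher in replicate 2. The pair that marks choroid plexus and pigment epithelium, Mir204 and Mir211, summed to 1146 and 1511 CPM, with 1 of 2 higher in replicate 2. Most of the epithelial sum was Mir203, and nearly all of the sum of the pair was Mir204. These counts of calls stand beside the shares of 9.76% and 28.1% given above.

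The endocrine and pituitary list, made of Mir375 and the 3 Mir7 genes, summed to 3923 and 4278 CPM, with 2 of 4 higher in replicate 2, namely Mir375 (392 and 476 CPM) and Mir7-2 (316 and 378 CPM). The 10 neuronal genes summed to 18647 and 20058 CPM, with 4 higher in replicate 2 and 1, Mir138-1, higher in replicate 1. The 3 analysed progenitor genes summed to 4533 and 4558 CPM, with 1 higher in each direction. Mir92b alone made up 89.9% of that sum in replicate 1 and 88.7% in replicate 2. Muscle miRNAs summed to 30.6 and 63.6 CPM, all of it Mir208b and Mir206, and 1 of the 5 analysed genes, Mir208b at 18.95 and 47.6 CPM, was higher in replicate 2 (log2 ratio 1.25, adjusted p 2.80e-11 by the exact binomial test). Their sums had the largest log2 ratio of these lists, 0.999, and Mir1a-1, Mir133a-1 and Mir133a-2 were at 0 in both libraries and so were not tested. Those 3 genes are numbered copies, and reads that fit several places are given to no gene. A count of 0 for them is therefore no measure of absence, and the muscle sum holds only reads given to a gene. Red cell miRNAs summed to 197 and 208 CPM, with 0 of 3 called in either direction. Calls toward replicate 2 were made for 9.76% of all genes tested and 28.1% of those that averaged 100 CPM or more. No list had a summed level that was as much higher in replicate 1 as the cluster, the lowest log2 ratio of sums being -0.026 for the progenitor genes, whose CPM sums before TMM scaling were slightly higher in replicate 2.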

How the data were processed

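Small RNA libraries from 2 pools of embryonic midbrain were used. The authors deposited whole read counts per miRNA gene for each, without regard to strand, on the sense strand and on the opposite strand, with no normalization. Per the deposited readme text, alignment was to mm10 with GENCODE M4. For the aligner and the counter, names and settings were not given in the sources used here. Rows that name no gene stayed out of library sizes. Unmapped reads were 13.4% and 16.9% of all reads in replicates 1 and 2, and reads outside genes 3.57% and 3.43%.

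Symbols and positions came from GENCODE M21, on the same assembly, for 1894 of 1973 identifiers. Sense counts were scaled to CPM. Ratios used TMM factors (edgeR 4.0.16) of 0.988 and 1.01, and all 717 genes with a count entered a two-sided conditional exact binomial test (scipy 1.17.1) with Benjamini-Hochberg adjustment and a threshold of 0.05. Ratios of members carry exact counting intervals at 95%. The procedures were tested on counts simulated with counting error only, which leaves out the spread between libraries seen in these data. Alternatives were DESeq2 1.42.0 size factors, total counts, upper-quartile scaling, leaving Mir99a out, the count column without regard to strand, edgeR's exact test, filters on CPM, pseudocounts of 0.1 and 10, other gaps and levels for neighbouring pairs, and leaving out each replicate.

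Genes named are the members, miRNAs with a member's seed, the 2 genes above and below each member in mean CPM, the 5 nearest in ratio, genes within 1 Mb and up to 4 leading genes of each marker list. Other list genes with no reads, Mir196a-1, Mir7022, Mir124a-2, Mir124a-3, genes cited for opposite-strand reads and genes at the ends of runs were named after their values were seen. Mir9-1 and Mir1a-2 of the lists were not analysed here. The members and lists were chosen with earlier results of these data known. The pools are biological replicates per the labels.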

Additional observations from a re-analysis of the deposited data

Results flagged for a closer look

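Mir182 had 6 reads on the opposite strand in replicate 2, above the 3 reads that a count of 0 allows, in a column that the comparisons do not use. Replicate 1 had 2 such reads. Beside them stand 3613 sense reads in replicate 2 and 3112 in replicate 1.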

How the results depend on the processing

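The direction of the ratio of Mir183, Mir96 and Mir182 between the libraries was the same in the 7 alternatives that compute it anew. The other 4, 2 tests and 2 filters, leave the ratio as it is and bear on the call alone. Under upper-quartile scaling, total counts, DESeq2 size factors, TMM without Mir99a, the column without regard to strand, both CPM filters and both pseudocounts, the calls did not change. The log2 ratio ranged from -0.57 to -0.53 for Mir182, from -0.37 to -0.34 for Mir96 and from -0.30 to -0.26 for Mir183. Allowing for spread between libraries ended all 3 calls in edgeR's exact test. At 10% the log2 ratios of -0.56, -0.37 and -0.29 for Mir182, Mir96 and Mir183 had adjusted p of 0.436, 1 and 1, and with the estimated dispersion 0.473, 1 and 1. Either setting left 3 called genes, 1 higher in replicate 1 and 2 higher in replicate 2, against 142, 72 and 70.

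Scaled by all reads listed, the cluster had 730 CPM and, with Mir99a left out of the total, 2108, against 1633. Leaving out a replicate gave 1410 to 1856 CPM for the cluster, 1.05 to 1.26 for Mir182 to Mir183, 3.43 to 3.92 for Mir182 to Mir96 and 3.10 to 3.27 for Mir183 to Mir96. Per base of hairpin, an alternative chosen after seeing the data, the mean ratio to Mir96 was 5.20 for Mir182 and 4.83 for Mir183. Among 304 pairs of at least 10 CPM, 81.2% had a smaller shift than Mir182 and Mir183. No paired analysis was possible because the libraries form a single group. With 1 library per pool and 2 pools, spread between pools is poorly known.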
